A study of Rattus norvegicus with 24 samples.

Results

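The comparison described here sets real against sham electroacupuncture in the paraventricular nucleus of the hypothalamus (PVN). Its members were chosen by their labels alone, as the 3 PVN libraries of the HT + EA group and the 3 PVN libraries of the HT + SEA group, which are 6 of the 24 small RNA libraries of the series. Both groups consisted of male Sprague–Dawley rats, bought at 7 weeks of age, that underwent partial hepatectomy (HT), the surgical removal, under isoflurane, of roughly 20% of the left lobe of the liver. In the HT + EA group, needles at the ST 36 and SP 6 points of 1 hind limb carried current at 2 and 15 Hz for 30 min, in a session on the day before surgery and another directly after it. In the HT + SEA group the needles were placed at the same points and carried no current. Rats of both groups were awake and restrained during the sessions, and the brains were collected 24 h later. Hepatectomy, anaesthesia, restraint and needle insertion were therefore shared, and the current alone separated the groups. PVN libraries of rats with hepatectomy and no needles (HT) and of rats without surgery (NC) are given as background, and libraries of the central nucleus of the amygdala (CEA) with the same treatments for comparison, with 3 libraries in each group. The study used 12 rats in 4 groups, and it says of its brain tissue that a batch but no animal was shared, without naming the nuclei, and the labels name no animals.

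MicroRNAs (miRNAs) are short RNAs that are cut from a hairpin precursor and guide Argonaute proteins to messenger RNAs, whose translation and stability they lower. Base pairing of the seed, bases 2 to 8 from the 5′ end, does most of the recognition, so miRNAs that share a seed share many targets. The PVN holds the neurons that release corticotropin-releasing hormone, vasopressin and oxytocin and so starts the hormonal response of the hypothalamic–pituitary–adrenal axis to stress such as surgery. The arms of a precursor are named 5p and 3p, and usually only a few miRNA families make up most of the miRNA reads of a tissue.

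The miRNAs on which the comparison turned follow with their mature sequences, as RefSeq gives them for the rat assembly GRCr8. The capitals mark the seed. Lower calls described at length come first, and miR-101a-3p and miR-101b-3p, which share their seed with each other, are shown beside miR-144-3p. miR-29b-3p and miR-218a-5p are each followed by the entry that is its reverse complement.
rno-miR-144-3p: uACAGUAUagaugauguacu
rno-miR-101a-3p: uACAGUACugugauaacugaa
rno-miR-101b-3p: uACAGUACugugauagcugaa
rno-miR-32-5p: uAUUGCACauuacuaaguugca
rno-miR-493-3p: uGAAGGUCuacugugugccag
rno-miR-33-5p: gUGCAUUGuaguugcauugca
rno-miR-153-3p: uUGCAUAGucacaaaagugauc
rno-miR-219a-5p: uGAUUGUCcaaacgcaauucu
rno-miR-29b-3p: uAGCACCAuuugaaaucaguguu
rno-miR-3587: aACACUGAuuucaaauggugc
rno-miR-218a-5p: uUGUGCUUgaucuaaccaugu
rno-miR-218b: cAUGGUUAgaucaagcacaa

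The miRNAs that led the higher calls are shown next. miR-1b and miR-206-3p share a seed, and the miR-199a entries are the opposite arms of a hairpin.
rno-miR-10a-5p: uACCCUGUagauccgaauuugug
rno-miR-145-5p: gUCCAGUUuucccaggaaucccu
rno-miR-199a-3p: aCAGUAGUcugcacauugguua
rno-miR-199a-5p: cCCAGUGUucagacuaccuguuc
rno-miR-205: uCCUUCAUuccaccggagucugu
rno-miR-1b: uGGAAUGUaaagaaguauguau
rno-miR-206-3p: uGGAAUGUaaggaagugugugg

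The total miRNA count was 12134529 to 14828269 in the HT + EA libraries and 13059380 to 13897929 in the HT + SEA libraries, so the groups had a similar depth. Levels are given as CPM, the count scaled by the total of its library. The limit that a count of 0 allows, 3 counts, was 0.202 to 0.247 CPM, and it covers counting error only. Of the 1098 miRNAs in the table, 687 had at least 10 counts over the 6 libraries and were tested, 608 known and 79 predicted. The tissue label was checked against its markers. The miR-7 family, known for its high level in the neuroendocrine hypothalamus, summed to 134900 to 169000 CPM in these 6 libraries and to 34610 to 54350 CPM in the CEA libraries of the same treatments. The libraries are of whole tissue, where fewer cells of a type and less RNA per cell cannot be told apart. The library HT + SEA 1 stood apart from HT + SEA 2 and 3 in a few miRNAs that are named where they occur. The labels do not say what the libraries of a group represent beyond separate samples, so the p values measure only the spread between these libraries.

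In HT + EA, 57 of 687 miRNAs were called at an unadjusted p under 0.05 in edgeR's quasi-likelihood test, 8.3% of those tested. If no miRNA differed, 34.4 calls would be expected at this threshold. Of the 57 calls, 24 were higher (3.49%) and 33 lower (4.8%) than in HT + SEA. The split turned with the scaling, with 30 higher and 25 lower under upper quartile scaling, and a fit of all 4 PVN groups together called 5 higher and 24 lower. Only miR-144-3p, which was lower, passed an adjusted p of 0.05, which is 0.146% of the miRNAs tested. That count was 18 with a minimum of 1 count, 27 with this minimum and no robust prior, 8 without HT + EA 3, 4 without HT + SEA 1, 2 without each of the other libraries and in DESeq2, and 0 in a fit blocked on the replicate number. The differences were small: the 22 higher calls with a mean of at least 1 CPM had log2 fold changes of 0.17 to 1.04 with a median of 0.33, and the 27 lower calls had values of -0.88 to -0.19 with a median of -0.30. A further 8 calls lay under 1 CPM. The median log2 fold change over all 687 miRNAs was -0.01. The HT + EA and HT + SEA libraries did not overlap in 97 of the 687 miRNAs (14.1%), 48 higher and 49 lower in HT + EA, and in 17 of the 24 higher and 28 of the 33 lower calls. The counts within the calls follow in part from choosing the calls on the same values. Whichever single library was left out, 5 of the higher calls (miR-10a-5p, miR-145-5p, miR-199a-3p, miR-205 and novel_212) and 8 of the lower calls (miR-144-3p, miR-32-5p, miR-493-3p, miR-33-5p, miR-153-3p, miR-879-5p, miR-743b-3p and miR-3473) were called again. The last pair of these passed the count minimum only through HT + SEA, where they were high, so their repeated calls are no support. For the others a repeated call is no separate evidence either, as these fits reuse the libraries that gave the calls.

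**Figure D1:**
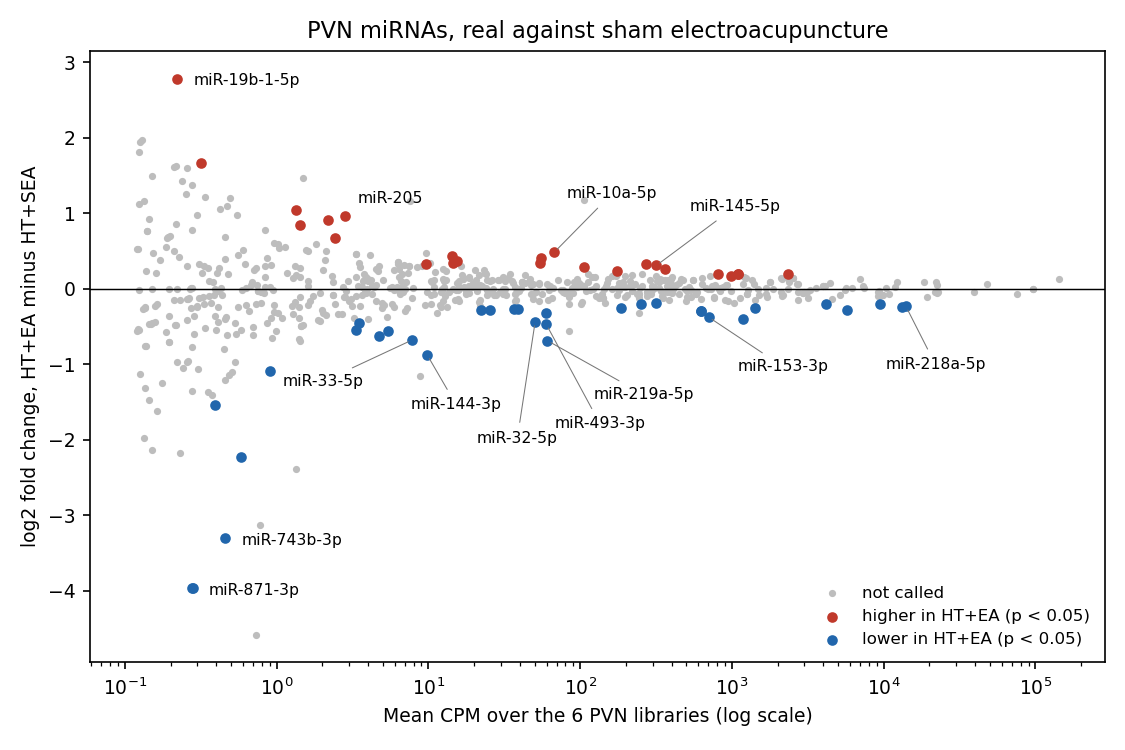
Each point is a miRNA of the 6 PVN libraries, with its mean CPM on a log axis and its log2 fold change, HT + EA minus HT + SEA. Red and blue points are the 24 higher and 33 lower calls at an unadjusted p under 0.05, and the calls with the largest fold changes lie at the left, under 1 CPM.

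The groups were also compared as whole profiles. The mean root-mean-square difference in log2 CPM over 501 miRNAs was 0.337 between libraries of different groups and 0.299 between libraries of the same group. The difference of 0.0382 gave p = 0.1 in an exact two-sided permutation test, which is the smallest value that the 10 splits of 6 libraries allow. Over miRNAs of at least 10 CPM the difference was 0.0201, with an exact p of 0.2. The first principal component held 35.5% of the variance and placed the HT + EA libraries at -2.63, -1.95 and -2.72. The HT + SEA libraries lay at -0.07, 4.50 and 2.87, so that HT + SEA 1 was the nearest to the HT + EA libraries.

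miR-144-3p, which is made together with miR-451 and is known from red blood cell precursors, had the smallest p. Its level was 6.46, 6.51 and 7.76 CPM in the HT + EA libraries and 14.5, 12.7 and 10.9 CPM in the HT + SEA libraries, so that the groups did not overlap. It was 45.7% lower in HT + EA, with a log2 fold change of -0.88 ± 0.16 (SE) and a 95% interval of -1.20 to -0.56 (edgeR quasi-likelihood test, adjusted p = 0.00155). The background groups lay with the sham group, at 13.95 ± 2.18 CPM (SD, n = 3) in HT and 13.6 ± 1.35 CPM in NC. The call stood in all 6 fits that left out 1 library, with log2 fold changes of -0.98 to -0.79 and adjusted p values of 0.000313 to 0.0465 in the edgeR test.

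The RNAs made from the same transcript as miR-144-3p were not called. RefSeq places it at chr10:63459446-63459465 on the plus strand of GRCr8, outside any annotated gene other than its own, with miR-144-5p of the same hairpin and miR-451-5p 139 bases away. miR-144-5p lay at 10.6, 13.5 and 7.49 CPM in HT + EA and at 10.9, 10.6 and 11.7 CPM in HT + SEA. Its libraries overlapped, and its log2 fold change was -0.08 with an interval of -0.42 to 0.27. miR-451-5p was at 138, 194 and 116 CPM in HT + EA and 140.0, 146 and 150.3 CPM in HT + SEA, a log2 fold change of 0.04 with an interval of -0.34 to 0.42. miR-486, another red blood cell miRNA, had a log2 fold change of 0.04 with an interval of -0.20 to 0.29. The list of red blood cell and liver miRNAs, of which 5 were tested, summed to 228.9 to 325.2 CPM in HT + EA and 253.9 to 298.2 CPM in HT + SEA, so that its sums overlapped while miR-144-3p did not.

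**Figure D2:**
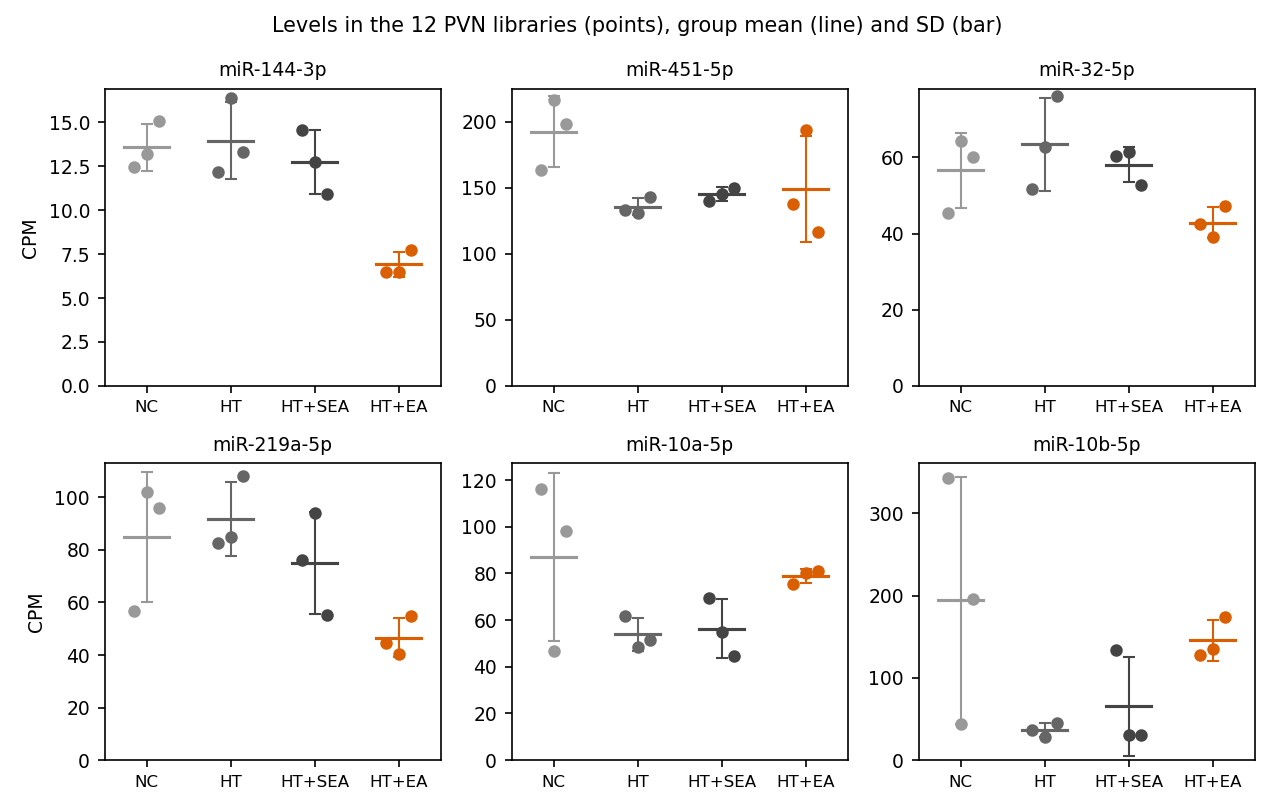
CPM of 6 miRNAs in each of the 12 PVN libraries (points), with the group mean (line) and SD (bar, n = 3). miR-144-3p is lower in the HT + EA libraries than in each library of the other 3 groups, miR-451-5p is not, and miR-10b-5p is high in HT + SEA 1 as well as in HT + EA.

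3 further lower calls had an adjusted p of 0.0892 in the edgeR test and were kept in all 6 fits that left out 1 library. miR-32-5p, whose seed is that of the miR-25 and miR-92 family, lay at 42.5, 39.0 and 47.1 CPM in HT + EA and at 60.3, 61.3 and 52.7 CPM in HT + SEA. The groups did not overlap, and the log2 fold change was -0.44 ± 0.12 (SE). The background groups had 63.5 ± 12.2 CPM (SD, n = 3) in HT and 56.6 ± 9.90 CPM in NC. The other arm, miR-32-3p, was also called lower, at 0.52, 0.82 and 0.40 CPM against 1.23, 1.15 and 1.34 CPM, but on 6 to 18 counts a library. Its log2 fold change of -1.10 became -1.03 without HT + EA 1, -0.88 without HT + EA 3 and -1.04 without HT + SEA 3, none of them called. The hairpin lies within the span of Tmem245 at chr5:76391288-76391349 on the minus strand.

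miR-33-5p lies within the span of Srebf2, a regulator of cholesterol synthesis, and is known to repress the cholesterol exporter Abca1. Its level was 6.91, 4.20 and 6.88 CPM in HT + EA and 9.80, 10.7 and 8.40 CPM in HT + SEA, a log2 fold change of -0.68 ± 0.18 (SE), without overlap. It was 9.98 ± 0.435 CPM (SD, n = 3) in HT and 13.4 ± 1.63 CPM in NC. The other arm, miR-33-3p, had a log2 fold change of -0.07 and was not called. miR-493-3p, of the imprinted Dlk1-Dio3 locus, lay at 46.1, 60.7 and 43.4 CPM against 77.4, 61.2 and 69.6 CPM, and HT + EA 2 and HT + SEA 2 nearly touched. Its log2 fold change was -0.47 ± 0.12 (SE).

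miR-153-3p, miR-218a-5p and miR-330-5p were lower by smaller amounts. miR-153-3p, a brain miRNA within the span of Ptprn2 that is known to target alpha-synuclein, lay at 666, 485 and 683 CPM in HT + EA and 857, 792 and 733 CPM in HT + SEA. It did not overlap, with a log2 fold change of -0.38 ± 0.12 (SE) and an adjusted p of 0.26 in the edgeR test. Its call was kept without each library, but the log2 fold change became -0.23 without HT + EA 2. miR-218a-5p, encoded within Slit2 and Slit3, lay at 12665, 12943 and 13053 CPM against 15259, 16751 and 13431 CPM. All of the HT + EA values were below all of the sham values, by 15.1% in the fit, but the log2 fold change of -0.24 became -0.22 without HT + EA 1 and -0.14 without HT + SEA 2, neither of them called. miR-330-5p, within the span of Eml2, was at 4599, 4849 and 5952 CPM against 6473, 6198 and 6085 CPM, with HT + EA 3 just under the lowest sham library. The fitted log2 value was -0.29, and -0.21 without HT + EA 1, which was not called.

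2 of these lower calls came with a partner that is not a separate measurement. miR-218b is the reverse complement of miR-218a-5p, with a log2 fold change of -0.25 against -0.24, and miR-3587 is that of miR-29b-3p, with -0.30 for each. Among the higher calls, miR-3596b is likewise the reverse complement of let-7d-5p, with 0.20 for each. In all, 44 pairs of tested miRNAs were reverse complements over at least 18 bases, and the partners often had nearly the same counts: in the 6 libraries the let-7d-5p pair differed by at most 0.00627% and the miR-29b-3p pair by at most 0.037% in their counts. The miR-218a-5p pair differed by at most 5.18%. Each of these 3 pairs is therefore described as 1 measurement. miR-29b-3p, which is known to repress collagen genes, lay at 566, 527 and 596 CPM in HT + EA and 695, 778 and 600.1 CPM in HT + SEA, without overlap. Its log2 fold change of -0.30 became -0.18 without HT + SEA 2, which was not called. HT libraries had 1042 ± 358 CPM (SD, n = 3) and NC libraries 717 ± 42.1 CPM. miR-29a-3p and miR-29c-3p, which share its seed, had log2 fold changes of 0.08 and -0.05.

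miR-219a-5p, a miRNA that is needed for the maturation of oligodendrocytes, had a large fold change and a large spread. It was at 44.6, 40.5 and 54.8 CPM in HT + EA and at 76.3, 93.8 and 55.0 CPM in HT + SEA, so that HT + EA 3 and HT + SEA 3 were nearly equal. The log2 fold change was -0.69 ± 0.23 (SE, edgeR, adjusted p = 0.411). Without HT + EA 1, HT + EA 2 or HT + SEA 1 it was not called, at -0.65, -0.60 and -0.70. The log2 fold change was -0.88 without HT + SEA 3, the sham library nearest to the HT + EA libraries. The other oligodendrocyte miRNAs were not called: miR-219a-2-3p had a log2 fold change of 0.14 with an interval of -0.05 to 0.33, and the 6 tested members of that list held this 1 call, 16.7% against 8.3% of all miRNAs. The list summed to 5147 to 6560 CPM in HT + EA and 4925 to 5693 CPM in HT + SEA. It holds miR-219a-2-3p (mean 2513 CPM) and its reverse complement miR-219b (mean 2509 CPM), whose counts differed by at most 0.162%. The members tested and the sums therefore hold that measurement under both names.

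Of the Dlk1-Dio3 locus, an imprinted region with many brain miRNAs, 84 members were tested, 3 were higher and 4 lower, 8.33% of the list against 8.3% of all miRNAs, and the median log2 fold change was 0.03. Besides miR-493-3p, the lower members were miR-134-5p, which is known to act in dendrites, miR-136-5p and miR-541-3p. miR-136-5p lay at 1039.5, 826 and 1182 CPM in HT + EA and at 1425, 1439.9 and 1167 CPM in HT + SEA, and HT + EA 3 was above HT + SEA 3. Without HT + EA 3, the HT + EA library nearest to the sham group, its log2 fold change was -0.53. Without HT + SEA 1 or HT + SEA 2 miR-136-5p was not called, at -0.38 and -0.33. miR-134-5p, at -0.25, was not called without HT + EA 1 (-0.22), HT + EA 2 (-0.18) or HT + SEA 3 (-0.20). The higher members were miR-433-3p, miR-487b-5p and miR-541-5p, with log2 fold changes of 0.19, 0.68 and 0.17. miR-433-3p was not called without HT + EA 1 (0.16), HT + EA 2 (0.14) or HT + SEA 2 (0.11). miR-487b-5p was not called without HT + EA 1 (0.59) or HT + SEA 1 (0.55), and miR-541-5p was called in 2 of these 6 fits. The arms of miR-541 were thus called in opposite directions, miR-541-3p with -0.45, but miR-541-3p was called in none of the 6 fits that left out 1 library.

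The other lower calls above 1 CPM had log2 fold changes between -0.62 and -0.19. They included miR-301a-3p (-0.56), miR-1912-3p (-0.55), which lies within the serotonin receptor gene Htr2c, miR-216a-5p (-0.62), miR-879-5p (-0.32), miR-187-3p (-0.25) and miR-24-2-5p (-0.19). miR-216a-5p was not called without HT + EA 2 (-0.39), miR-301a-3p without HT + SEA 1 (-0.43), and miR-187-3p without HT + EA 2 (-0.21) or HT + SEA 1 (-0.20). miR-1912-3p was called in 3 and miR-24-2-5p in 1 of the 6 such fits. miR-101a-3p and miR-101b-3p, which share the seed ACAGUAC, were both called, with log2 fold changes of -0.21 and -0.20 at 9405 and 4136 CPM. Both were lost without HT + EA 1, HT + EA 2, HT + SEA 2 or HT + SEA 3, with -0.13 each without HT + EA 2. The miR-34 family, whose members respond to p53, had 2 calls, miR-34a-5p at -0.20 and miR-34c-3p at -0.27, which was called in only 2 of the 6 fits. miR-34b-3p, miR-34b-5p and miR-34c-5p had -0.21, -0.16 and -0.15 and did not pass the threshold.

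Among the higher miRNAs, miR-10a-5p had the smallest p. It is encoded in a Hox gene cluster and is known from the hindbrain and spinal cord. It was at 75.4, 80.0 and 80.9 CPM in HT + EA and at 69.6, 55.0 and 44.5 CPM in HT + SEA, without overlap. The log2 fold change was 0.48 ± 0.13 (SE, edgeR, adjusted p = 0.0892), and the call was kept without each library, with log2 fold changes of 0.34 (without HT + SEA 3) to 0.64 (without HT + SEA 1). The adjusted p in these edgeR fits ran from 0.00413 to 0.503. The background groups had 53.9 ± 6.89 CPM (SD, n = 3) in HT and 87.1 ± 36.1 CPM in NC, and the NC libraries alone ranged from 46.8 to 116 CPM (rno-miR-10a-5p).

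miR-10b-5p, of another Hox cluster, and miR-223-3p, a miRNA of neutrophils and other myeloid cells, were singled out after their values were seen. miR-10b-5p was at 128, 135 and 174 CPM in HT + EA and at 134, 31.0 and 30.6 CPM in HT + SEA. miR-223-3p was at 10.3, 8.98 and 11.9 CPM in HT + EA and at 11.1, 1.58 and 1.49 CPM in HT + SEA. In both, HT + SEA 1 had the level of the HT + EA libraries and HT + SEA 2 and 3 were lower, and neither was called, with log2 fold changes of 1.17 ± 0.71 and 1.16 ± 0.87 (SE). Without HT + SEA 1 their log2 fold changes were 2.23 and 2.74. Leaving out the library that set them apart makes the p values of that fit no support, and they are not given. The HT libraries had 36.7 ± 8.52 and 1.32 ± 0.266 CPM (SD, n = 3), and the NC libraries 194 ± 150 and 64.2 ± 36.4 CPM. Of the 11 tested members of the myeloid list, 1 was called (9.09%, against 8.3% of all miRNAs), miR-142-3p, and it was lower, with a log2 fold change of -0.28. miR-142-3p was not called without HT + EA 2 (-0.18), HT + SEA 1 (-0.21) or HT + SEA 2 (-0.26). The summed level of the list was 7121 to 7508 CPM in HT + EA and 6712 to 7385 CPM in HT + SEA. The part of blood cells or of neighbouring tissue in these values was not tested.

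miR-145-5p, a miRNA of smooth muscle and pericytes, lay at 316, 369.7 and 369 CPM in HT + EA and at 280.5, 281 and 291 CPM in HT + SEA, without overlap. Its log2 fold change was 0.31 ± 0.09 (SE, edgeR, adjusted p = 0.214), and its call was kept without each library. miR-143-3p, which is made from the same transcript 1340 bases away, was at 9570, 10446 and 11167 CPM against 10469, 10495 and 10079 CPM, a log2 fold change of 0.01 with an interval of -0.17 to 0.18. Of the 7 vascular miRNAs tested, miR-145-5p was the only call, 14.3% against 8.3% of all miRNAs, and the list's median log2 fold change was -0.01. The list summed to 28860 to 30570 CPM in HT + EA and 30070 to 31640 CPM in HT + SEA.

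Both arms of the miR-199a hairpin, within the span of Dnm3, were higher. miR-199a-3p lay at 58.2, 64.4 and 59.7 CPM against 56.2, 43.6 and 44.5 CPM, and miR-199a-5p at 16.6, 15.99 and 19.2 CPM against 13.1, 14.6 and 12.6 CPM. Neither overlapped, and the log2 fold changes were 0.34 ± 0.11 and 0.36 ± 0.14 (SE). The call of miR-199a-5p was lost without HT + EA 3 (0.28) and HT + SEA 3 (0.31). miR-222-3p was at 434, 379 and 371 CPM against 336, 299.9 and 352 CPM, without overlap, with 0.26 ± 0.09, and was not called without HT + EA 1 (0.19) or HT + SEA 2 (0.22). miR-221-3p, its neighbour with the same seed 564 bases away, had 0.03 with an interval of -0.16 to 0.22. let-7d was called in both arms, with 0.20 for let-7d-5p and 0.28 for let-7d-3p. let-7d-5p was called in only 2 fits with 1 library left out, and let-7d-3p was not called without HT + EA 2 or HT + SEA 2 (0.22 each). The other let-7 members on the list were not called, 10% of the 20 tested being called against 8.3% of all miRNAs, and the list's median was 0.05.

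Among the miRNAs known from striated muscle, miR-1b and miR-206-3p were higher in HT + EA. miR-1b was at 256, 301 and 353 CPM in HT + EA and 267, 232 and 229 CPM in HT + SEA, and HT + EA 1 overlapped the sham group. The fitted log2 difference was 0.32 ± 0.11 (SE), and 0.20 without HT + EA 3, which was not called. miR-206-3p, with the same seed, was at 17.2, 13.3 and 18.1 CPM against 14.7, 11.8 and 11.8 CPM, with 0.34 ± 0.15, and was called only when HT + EA 2 or HT + SEA 1 was the library left out, with 0.26 to 0.31 in the other 4 fits. Of the 9 list members tested, these 2 were called (22.2%, against 8.3% of all miRNAs), 7 were above 0, 4 did not overlap (14.1% of all miRNAs), and the median log2 fold change was 0.34 against -0.01 for all miRNAs. In these counts miR-133a-3p and its reverse complement miR-133c, with identical counts, stand for 1 measurement listed under 2 names. miR-499-5p, at 299 CPM, had -0.01. miR-1-3p at 3.33 CPM and miR-133a-3p at 6.31 CPM, the defining markers of striated muscle, had 0.46 with an interval of -0.01 to 0.94 and 0.35 with an interval of -0.0034 to 0.71, and did not pass the threshold. The summed list overlapped between the groups, from 604.6 to 673.6 CPM in HT + EA and from 529 to 626.3 CPM in HT + SEA, and ranged from 694.9 to 976.1 CPM in NC. The part of muscle or meningeal tissue in these values was not tested.

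**Figure D3:**
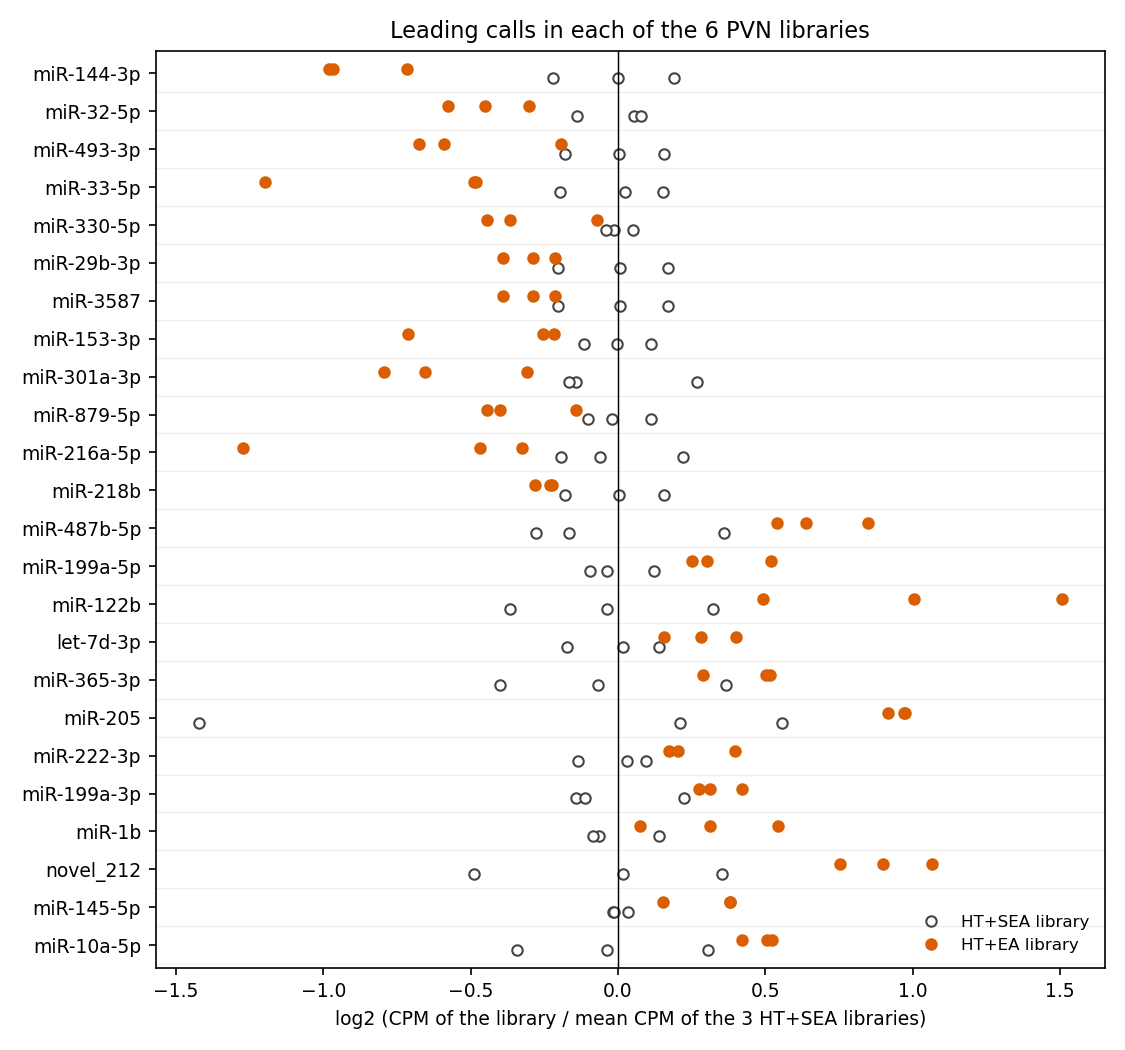
For the 12 lower and 12 higher calls with the smallest p among those with a mean of at least 1 CPM, each library's CPM is shown as a log2 ratio to the mean of the 3 HT + SEA libraries. Filled points are HT + EA and open points HT + SEA libraries. In miR-144-3p the groups lie far apart against their spread, and in miR-1b and miR-365-3p they overlap.

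The remaining higher calls with the smallest p values were at low levels. miR-205, an epithelial miRNA, was at 3.64, 3.79 and 3.78 CPM in HT + EA and at 2.83, 0.72 and 2.23 CPM in HT + SEA, a log2 fold change of 0.96 ± 0.33 (SE), without overlap. The predicted miRNA novel_212 was at 2.82, 2.55 and 3.17 CPM against 1.53, 1.08 and 1.93 CPM, with 0.91 ± 0.29, and both calls were kept without each library, although miR-205 had 0.58 without HT + SEA 2. miR-122-5p, the main miRNA of hepatocytes, was at 2.45, 1.73 and 1.35 CPM against 1.23, 1.08 and 0.74 CPM. The groups did not overlap. The log2 fold change was 0.85 ± 0.37, and 0.59 without HT + EA 1 and 0.67 without HT + SEA 3, neither called. miR-122b had 1.04 ± 0.39, and was not called without HT + EA 1 (0.75) or HT + SEA 3 (0.88). With 33, 21 and 18 counts against 11, 15 and 9, miR-122b lay close to the 33, 21 and 20 against 16, 15 and 10 counts of miR-122-5p, and these may not be separate measurements. In HT rats miR-122-5p had 4.89 ± 6.51 CPM (SD, n = 3), a spread within a group that exceeded the difference described here. miR-365-3p had a log2 fold change of 0.44, and 0.26 without HT + SEA 1, which was not called. miR-28-3p, miR-125a-5p, miR-296-3p and miR-423-3p were also called, with 0.41, 0.19, 0.33 and 0.23, and each was called in at most 3 of the 6 fits that left out 1 library. The value became 0.14 for miR-28-3p without HT + EA 3, 0.11 for miR-125a-5p without HT + SEA 2 and 0.18 for miR-296-3p without HT + EA 1.

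The calls with the largest fold changes rested on a few counts. miR-743b-3p, miR-871-3p and miR-471-5p belong to a cluster of 22 miRNAs on chromosome X. These 3 passed the minimum of 10 counts only through the HT + SEA libraries, so that they had to be higher there, and their values are given as a description. miR-743b-3p had 0, 2 and 1 counts in HT + EA and 21, 3 and 9 counts in HT + SEA, a ratio of 0.0909 with an exact 95% counting interval of 0.0178 to 0.29. miR-871-3p had 0, 0 and 1 against 16, 1 and 4 counts, and miR-471-5p 1, 0 and 0 against 19, 1 and 1 counts, a ratio of 0.0476 each with an interval of 0.00115 to 0.296. The whole cluster summed to 25, 13 and 12 counts in HT + EA and to 240, 18 and 49 counts in HT + SEA, so HT + SEA 1 carried most of it. In the HT libraries it summed to 12, 26 and 9 counts, in the NC libraries to 97, 17 and 8, and in the 12 CEA libraries to between 146 and 534. Without HT + SEA 1, miR-871-3p and miR-471-5p were under the count minimum and miR-743b-3p was still called, and miR-471-5p was not called without HT + EA 1 or HT + EA 2 either. miR-19b-1-5p had 2, 6 and 8 counts in HT + EA and 0, 2 and 0 in HT + SEA, a ratio of 7.996 with a counting interval of 1.88 to 71.7, and its call was lost without HT + EA 3, HT + SEA 1 or HT + SEA 3. miR-19b-1-5p passed the minimum through HT + EA alone, and miR-3473, with 8, 0 and 0 counts against 12, 15 and 12, through HT + SEA alone. miR-509-3p had 8, 3 and 9 counts against 3, 1 and 2, passed through HT + EA alone, and was not called without HT + EA 1, HT + EA 3, HT + SEA 2 or HT + SEA 3. novel_1082, with 1, 3 and 4 counts against 4, 12 and 8, passed through HT + SEA alone and was not called without HT + EA 1, HT + SEA 2 or HT + SEA 3.

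Lists of miRNAs grouped by cell type or by pathway placed these calls among their relatives. In the neuronal list of 23 members, miR-153-3p and the miR-218a-5p and miR-218b pair were lower and none was higher, and the median log2 fold change was -0.06. The 3 names called are 13.04% of the list, against 8.3% of all miRNAs, but they stand for 2 measurements, and miR-9a-5p and miR-9b-3p are likewise a pair of reverse complements. miR-124-3p, the leading neuronal miRNA, had a log2 fold change of -0.14 with an interval of -0.32 to 0.03, and miR-9a-5p, the most abundant member, had -0.01. The list summed to 237500 to 246700 CPM in HT + EA and 235500 to 254200 CPM in HT + SEA. These sums count both names of each pair, with miR-9a-5p at a mean of 96310 CPM and miR-9b-3p at 96080 CPM. For miR-218a-5p and miR-218b the means were 14020 and 13200 CPM. miR-132 and miR-212, which neurons make when CREB is active, had no call among 4 members, and miR-132-3p had a log2 fold change of -0.02 with an interval of -0.20 to 0.15. The miR-7 family had no call among 4 members, and miR-7a-5p, the most abundant miRNA of the PVN libraries named here at 142120 CPM, had 0.13 with an interval of -0.05 to 0.30.

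miRNAs that are known to act on the stress axis, such as miR-18a and miR-124 on the glucocorticoid receptor and miR-34 on the CRH receptor, had 16 members tested. None was higher, miR-34a-5p and miR-34c-3p were lower, 12.5% of the list against 8.3% of all miRNAs. Of the 16, 4 were above 0, against 331 of 687, and the median was -0.11. The list shares miR-34b-3p, miR-34b-5p, miR-34c-3p, miR-34c-5p and miR-449a-5p with the choroid plexus and ciliated list, whose median was -0.16 with 2 of 8 above 0. In 5 of the 16 the HT + EA libraries lay wholly below the sham libraries and in none above, against 49 below and 48 above among all 687. The members are not independent, as miR-34b-5p and miR-34c-3p start only 556 bases apart. The summed list was 6039 to 6632 CPM in HT + EA and 6651 to 7303 CPM in HT + SEA, with 6040 to 7867 CPM in HT and 6922 to 7819 CPM in NC. A list of miR-23b, miR-103, miR-107 and miR-339, chosen for the mu-opioid receptor, had no call among 7 members and a median of 0.02. It leaves out let-7, which is also known to act on that receptor and whose calls are described with miR-199a. The miR-30 and miR-181 families also had no call, among 11 and 9 members.

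Markers of other tissue were examined with the same test, and single calls in lists of this size are to be read against the 8.3% of all miRNAs that were called. The epithelial list, which does not include the higher call miR-205, had no call among 10 members (median 0.17), and its sum ran from 51.9 to 157 CPM in HT + EA and from 75.7 to 98.5 CPM in HT + SEA. The choroid plexus and ciliated list held 1 lower call, miR-34c-3p, among 8 members, with a median of -0.16, and summed to 3176 to 3554 CPM against 3435 to 3824 CPM. The Hox list held miR-10a-5p as its call among 4 members, with sums of 203.5 to 256 CPM in HT + EA, 75.5 to 204.4 CPM in HT + SEA and 91.1 to 460.5 CPM in NC. The miR-17-92 group held miR-19b-1-5p as its only call among 17. In the list of miRNAs that tell the PVN from the CEA, miR-296-3p was the only call among 23 on the PVN side. On the CEA side miR-222-3p was called higher and miR-743b-3p lower among 11, 18.2% against 8.3% of all miRNAs. miR-743b-3p passed the count minimum only through HT + SEA and miR-19b-1-5p only through HT + EA, so these calls are no support.

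**Figure D4:**
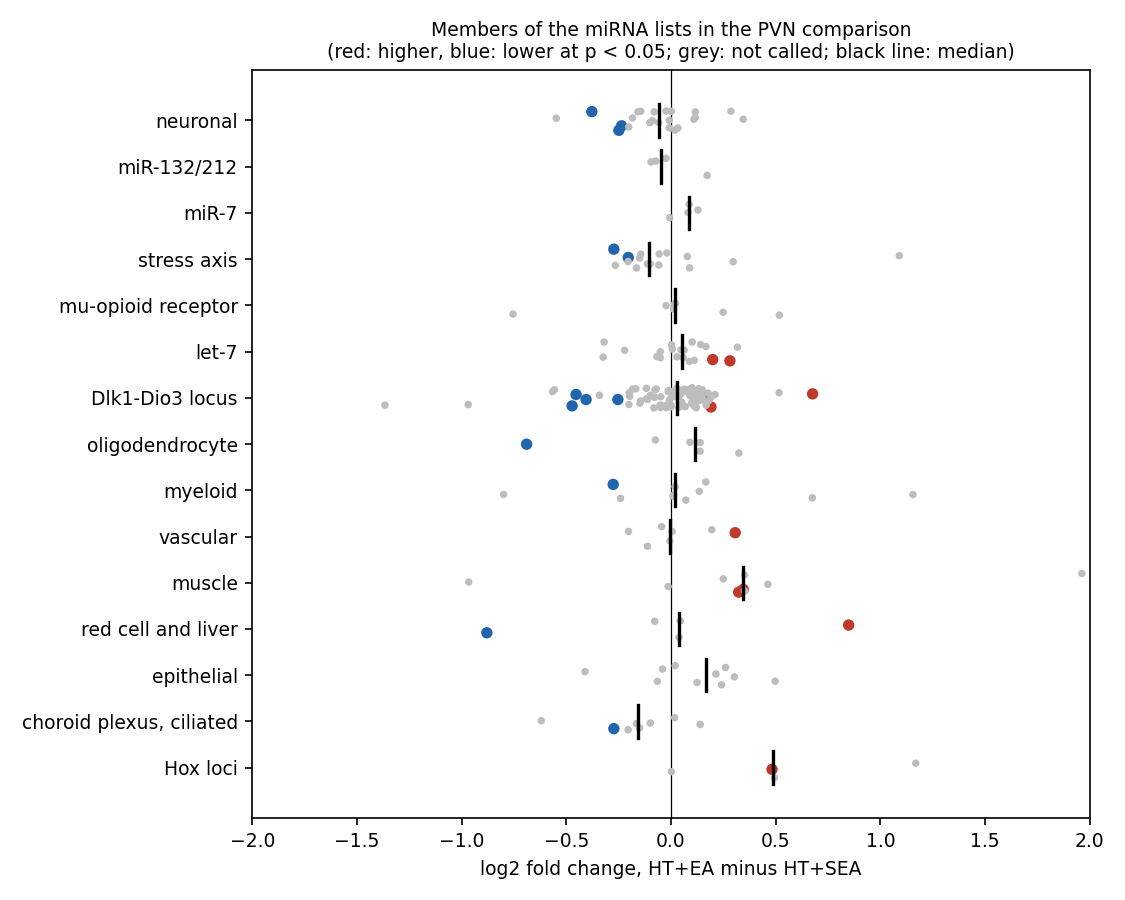
Log2 fold changes (HT + EA minus HT + SEA) of the tested members of 15 lists, with the median as a black line. Red and blue points passed an unadjusted p under 0.05. The muscle and Hox lists have medians of 0.34 and 0.49, and the stress axis and choroid plexus lists of -0.11 and -0.16.

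A further list held 12 miRNAs, all but miR-326-3p named in the text of the study, where part of them were chosen from comparisons that share the HT + EA libraries. The list leaves out some that the study also mentions, among them miR-3084, miR-142 and miR-212. Of the 12, 11 were tested, and 1 was called (9.09%, against 8.3% of all miRNAs), miR-34a-5p, which was lower. miR-34a-5p was at 218, 240.2 and 240.4 CPM in HT + EA and 251, 290 and 263 CPM in HT + SEA, a log2 fold change of -0.20 with an interval of -0.40 to -0.01 and an adjusted p of 0.559 in the edgeR test. Without HT + EA 1 and without HT + SEA 2 it was not called, at -0.16 and -0.12. The other 10 did not pass the threshold. miR-92b-3p had a log2 fold change of 0.12 with an interval of -0.08 to 0.32, miR-328a-3p 0.14 with -0.03 to 0.31, and miR-1224 -0.19 with -0.44 to 0.06. miR-3548, at 1.81 CPM, had 0.59 with -0.11 to 1.29. It is the reverse complement of miR-200a-5p of the epithelial list, at 2.10 CPM with 0.50, and these may not be separate measurements. novel_583 had at most 1 count in any of the 6 libraries and was not tested.

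Calls were compared within hairpins and seed families. Both arms were tested for 205 hairpins, and 30 of them had an arm called. In 18 of the 30 the arms had the same sign, and in 4 both arms were called, let-7d and miR-199a higher, miR-32 lower and miR-541 in opposite directions. Only 2 seeds were shared by more than 1 called miRNA, ACAGUAC of miR-101a-3p and miR-101b-3p and GGAAUGU of miR-1b and miR-206-3p. In the seed family of miR-32-5p, miR-25-3p, miR-92a-3p and miR-92b-3p had log2 fold changes of 0.12, 0.19 and 0.12 and were not called, while miR-32-5p was lower. Among 463 miRNAs of at least 1 CPM with a known sequence, the median GC content was 47.8%, against 42.9% in the 23 lower calls and 50.0% in the 19 higher calls.

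The same contrast in the CEA used 6 other libraries. There, 12 of 687 miRNAs were called (1.75%), 5 higher and 7 lower, and none at an adjusted p under 0.05 in edgeR, and DESeq2 called 8 at an unadjusted p under 0.05. Without CEA HT + SEA 1 there were 23 calls and without CEA HT + SEA 2 there were 24. The median standard error of miRNAs of at least 1 CPM was 0.185 in the CEA and 0.119 in the PVN, so that the CEA comparison was the less precise. Of the PVN calls of at least 1 CPM, 16 of 22 higher and 23 of 27 lower calls had the same sign in the CEA, where 298 of all 512 miRNAs of that level (58.2%) did. The calls count 3 reverse-complement pairs under both names. Over these 512 miRNAs, which are not independent, the log2 fold changes of the nuclei had a Pearson r of 0.333 and a Spearman rho of 0.268.

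3 miRNAs, miR-144-3p, miR-32-5p and miR-142-3p, were called in both nuclei, and each was lower in both. In the CEA miR-144-3p was 4.97 ± 2.18 CPM (SD, n = 3) in HT + EA and 10.6 ± 5.52 CPM in HT + SEA, with overlap. Its log2 fold change there was -1.10 ± 0.44 (SE), at an adjusted p of 0.999 in the edgeR test. miR-451-5p, at 105 ± 19.97 CPM against 153 ± 49.6 CPM, was also called lower in the CEA, with -0.56, unlike in the PVN. miR-32-5p was 57.5 ± 8.35 CPM against 78.6 ± 22.02 CPM in the CEA, with -0.46, and miR-142-3p had -0.39.

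The difference between the nuclei was tested as an interaction over 773 miRNAs, in a fit that treats the 12 libraries as coming from separate animals. It had p under 0.05 for 18 (2.33%) and none after adjustment, where the smallest adjusted p was 0.997 in edgeR. For miR-144-3p and miR-32-5p the unadjusted interaction p was 0.726 and 0.94, and for miR-10a-5p, whose CEA log2 fold change was -0.01 ± 0.26 (SE), it was 0.212. miR-122-5p had the opposite sign in the CEA, with -0.80 against 0.85, and an unadjusted interaction p of 0.0171 that did not survive adjustment.

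**Figure D5:**
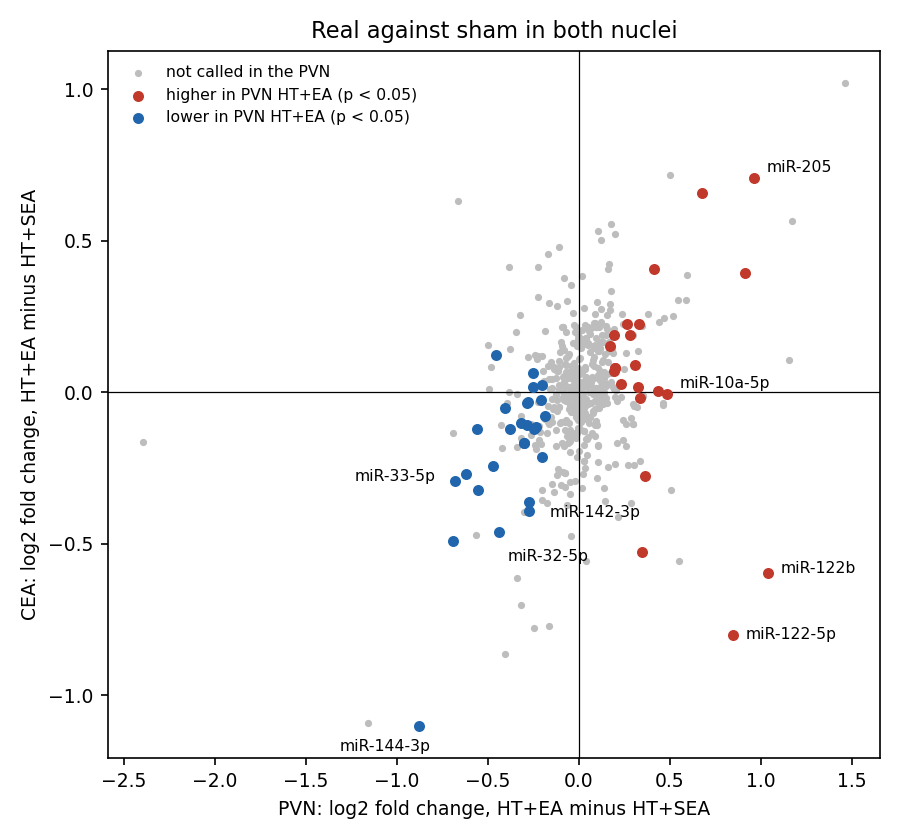
Log2 fold change, HT + EA minus HT + SEA, in the PVN (horizontal) and in the CEA (vertical) for 512 miRNAs of at least 1 CPM in the PVN. Red and blue points are PVN calls. miR-144-3p lies lowest in the CEA among the PVN calls, and miR-122-5p and miR-122b have opposite signs in the nuclei.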

How the data were processed

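The table the authors deposited holds raw counts, without normalization, of 1098 miRNAs in 24 libraries of PVN and CEA tissue. According to the study, the small RNA was prepared with NEBNext reagents, unreliable reads and adapter sequence were filtered out, and HISAT2 and featureCounts served for alignment to a rat build and for counting. The submitters' processing notes name the builds GRCh38 and hg38, while the study names a rat build. How reads that match several miRNAs were counted is not given in the sources used here. A further 24 columns whose names match no label were not used.

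Counts were fitted in edgeR 4.0.16 (limma 3.58.1, R 4.3.3) on the 6 libraries compared, with TMM factors of 0.978 to 1.01, glmQLFit with a robust prior and glmQLFTest, over miRNAs with at least 10 counts in total. The robust prior and this minimum were chosen because a non-robust fit on miRNAs with at least 1 count left them no spread of their own. CPM are counts scaled by the library total, with no TMM factor. Log2 fold changes are coded HT + EA minus HT + SEA, and their standard error comes from the F statistic. Following the study, a miRNA was called when its unadjusted p was under 0.05, with Benjamini-Hochberg adjustment over all miRNAs tested. The fit was tested on simulated data.

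Named were miRNAs at an adjusted p under 0.05, the 12 calls of at least 1 CPM with the smallest p in each direction, called members and the 4 most abundant members of 22 lists, the miRNAs of the study's text, those called in both nuclei, and calls with under 3 counts in every library of a group. The members, lists, rule and tests were chosen with earlier results of these data known, and the lists for the PVN and CEA sides rest on the same libraries. Sequences, positions and spans of genes are those of RefSeq for GRCr8, and 637 of 703 known miRNAs were matched by name. The alternatives were DESeq2 1.42.0, other scalings, filters and spread estimates, fits of the 4 groups of a nucleus together, a replicate block, and leaving out each library. Figures were made with matplotlib in Python 3.11.15.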

Additional observations from a re-analysis of the deposited data

How the results depend on the processing

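With 3 libraries in each group, the number of calls depended on single libraries. In the PVN 57 miRNAs were called, and 44 to 71 when 1 library was left out, with 36 higher and 32 lower without HT + SEA 3, 33 and 28 without HT + SEA 1 and 17 and 27 without HT + EA 1. Of the 57, 30 to 45 remained. With all 4 PVN groups in the fit, 29 were called, 5 higher and 24 lower. With upper quartile scaling 55 were called, 30 higher and 25 lower, against 23 and 36 with DESeq2's size factors. The other alternatives gave 50 to 71. At an adjusted p under 0.05 there was 1 call, against 18 with at least 1 count, 27 with at least 1 count and no robust prior (added after seeing the data), 2 in DESeq2 and 2 to 8 without 1 library, the 8 without HT + EA 3 and 4 without HT + SEA 1.

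The replicate numbers did not pair the libraries: deviations of same-numbered libraries correlated at 0.0903, 0.157 and -0.106. In a fit blocked on these numbers, 67 miRNAs were called and 0 at an adjusted p under 0.05, where the adjusted p of miR-144-3p was 0.0581. This was the largest over 12 alternatives, all of which called miR-144-3p.

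In the CEA 12 were called, against 25 with at least 1 count, 23 with that filter and no robust prior, 7 with all 4 groups, and 8 to 24 without 1 library, the most without HT + SEA 1 (23) and HT + SEA 2 (24). The interaction had 0 miRNAs at an adjusted p under 0.05 (18 unadjusted), and 0 to 1 without 1 library, the 1 without PVN HT + EA 1. The distance between groups was 0.0201 with an exact p of 0.2 over miRNAs of at least 10 CPM. No named call changed direction under any alternative. Depth limits miRNAs under about 1 CPM, whose calls rest on few counts.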
